A study of Mus musculus with 12 samples.

Results

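The endothelin and nitric oxide genes are a set of 7 mouse genes that control the tone of glomerular vessels, namely Edn1, Ece1, Ednra, Ednrb, Nos1, Nos2 and Nos3. They were taken by symbol from 26264 gene symbols that both count tables list, and all 7 were among the 17002 genes kept for testing. Expression was measured by RNA-seq of isolated glomeruli in 12 libraries, 3 per group. The groups were untreated males of 2 substrains at baseline, BALB/cAjcl (here Ajcl) and BALB/cByJcl (here ByJcl), and males of each substrain 5 days after a single intravenous dose of adriamycin (ADR, 10 mg/kg), a drug that injures podocytes. Both derive from the inbred albino strain BALB/c, were 8 weeks old, and no introduced allele is named for either. Vehicle-treated mice were not among the libraries, and the baseline and Day 5 counts came in separate tables, so ADR and any difference in handling between the tables cannot be told apart.

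Endothelin-1, made from Edn1, is a peptide that constricts vessels. Its precursor is cut to the active form by the converting enzyme encoded by Ece1. The peptide acts on 2 receptors, of which the type A receptor (Ednra) constricts smooth muscle and contracts mesangial cells, while the type B receptor (Ednrb) on endothelium releases nitric oxide and clears the peptide. Nitric oxide, which relaxes vessels, is made from arginine by a neuronal (Nos1), an inducible (Nos2) and an endothelial (Nos3) synthase. In the kidney the neuronal form is best known from the macula densa, the tubular cells that touch the glomerulus.

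Sequence shared between family members is shown first, because reads that match more than one gene could move counts between them. The longest exact run common to any transcripts of Edn1 and Edn2 in the GENCODE annotation (GRCm39) spans 29 coding bases at chr13:42457161-42457189 on the plus strand, over the end of the part that encodes the mature peptide. The capitals mark the 21 bases that Edn3 shares as well. The neuronal and endothelial synthases share at most 23 coding bases, at chr5:118074531-118074553 in Nos1 and chr5:24585218-24585240 in Nos3, and the inducible and endothelial forms share 22, at chr11:78828657-78828678 in Nos2 and chr5:24574827-24574848 in Nos3.
Edn1 and Edn2: tacttcTGCCACCTGGACATCATCTGGgt
Nos1 and Nos3: tgcagtaccagccaggggaccac
Nos2 and Nos3: atggccgctttgatgtgctgcc
For Nos1 and Nos2 the longest run was 20 bases and for the receptors it was 15. All of these runs are far shorter than the 150-base reads. Of the annotated genes that overlap a member, the tables list 1, Atg9b, which lies on the strand opposite to Nos3 over 297 bases and had 52 to 285 counts per library; the strand setting of the counting is not given in the sources used here.

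The start of Edn1 is shown because the gene is known to respond to hypoxia and to AP-1 factors through elements near its start. RefSeq promoter windows (GRCm38.p6, 250 bases before to 50 after the start) matched 5 of the 7 members, and none matched Nos2 or Nos3. The last 30 bases of the Edn1 window match GRCm39 once, at chr13:42454972-42455001 on the plus strand, and all 30 lie in an annotated exon.
Edn1, bases 21 to 50 after the start: gCACGTtgcctgtgggTGACTAAtcacaca
The capitals mark ACGTG, the core of hypoxia response elements, read on the opposite strand, and TGACTAA, a motif of the AP-1 type. The letters AGATAA were also found on the opposite strand from base 9 after the start. Among 32851 windows of 300 bases, searched on both strands, 19.6% held ACGTG, 2.35% held TGACTAA and 11.2% held AGATAA. In the last 30 bases alone, the stretch shown for Edn1, 1.87% held ACGTG and 0.155% held TGACTAA. A match only describes these letters, and their use in these glomeruli was not tested.

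Whether single reads or read pairs were counted is not given in the sources used here, so a printed count may stand for either. Total counts per library ran from 42198416 to 54687045, and every ByJcl baseline library was deeper than every Ajcl baseline library. Ajcl Day 5 replicate 1, which the study left out for reduced glomerular purity, had the lowest ratio of podocyte to proximal tubule marker counts (2.16, against 4.13 to 51.6 in the others) and was left out of the fit of 11 libraries. Markers fixed for podocytes summed to between 7031 and 20649 CPM (counts scaled to library size) and those for endothelium to between 7139 and 12298, so the defining glomerular genes were present. Markers of the loop, macula densa and distal tubule ran from 94.5 to 1965 CPM, so tubular transcripts differed widely between libraries. In bulk RNA, fewer cells of a type and less RNA per cell cannot be told apart.

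Per length of annotated exon, the converting enzyme and the type B receptor were the most abundant members. Ece1 (chr4:137589530-137692542) averaged 75.7 ± 14.0 CPM per kb over the 12 libraries (SD) and Ednrb (chr14:104052053-104081900) 51.6 ± 7.96. The endothelial synthase Nos3 (chr5:24569787-24589475) followed at 19.8 ± 5.89 and the ligand Edn1 (chr13:42446301-42461466) at 7.37 ± 3.12 CPM per kb. The type A receptor Ednra (chr8:78386590-78451552) averaged 2.91 ± 0.415, the inducible synthase Nos2 (chr11:78811613-78851080) 2.00 ± 0.697 and the neuronal synthase Nos1 (chr5:117918971-118096905) 0.233 ± 0.138 CPM per kb. This order held between each neighbouring pair in 12 of 12 libraries, except that Nos2 was above Ednra in ByJcl Day 5 replicate 1. The ranges of Ece1 (52.8 to 104.6) and Ednrb (40.0 to 71.9) overlapped between libraries, as did those of Nos3 (13.8 to 33.01) and Edn1 (4.26 to 15.9) and those of Ednra (2.21 to 3.53) and Nos2 (1.06 to 3.81).

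**Figure D1:**
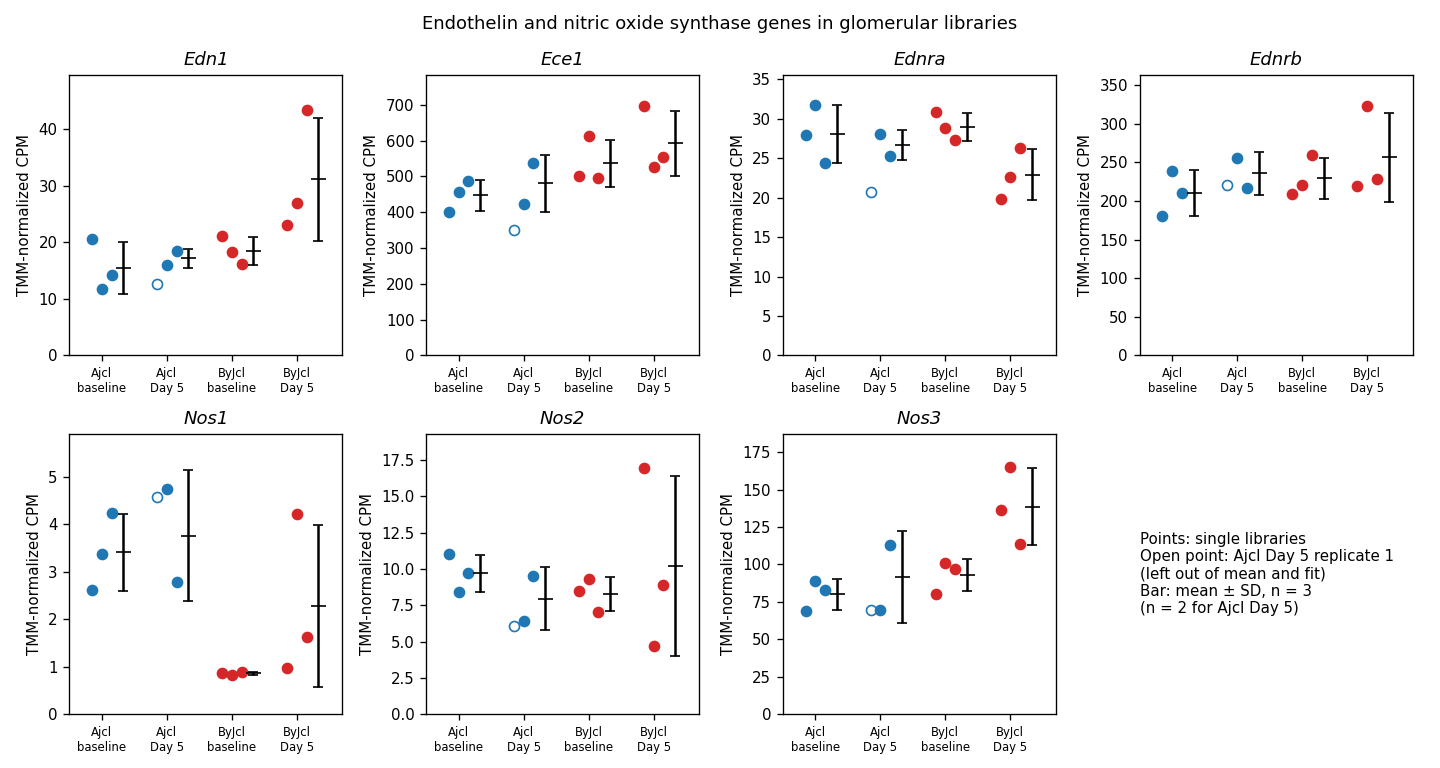
TMM-normalized CPM of the 7 genes in each library (points), with mean ± SD beside them (n = 3, or 2 for Ajcl at Day 5, where the open point is the library left out). Nos1 was below 1 CPM in all 3 ByJcl baseline libraries, and Edn1 and Nos3 were highest in ByJcl at Day 5.

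Comparisons between groups used the quasi-likelihood test of edgeR in 1 fit of the 11 libraries, with Benjamini-Hochberg adjustment over all 17002 genes and a call below 0.05. None of the 7 members was called in any of the 5 comparisons. With DESeq2 on the same libraries 1 member was called between substrains at baseline and 3 between Day 5 and baseline in ByJcl. Of all genes, edgeR called 0.159% between substrains at baseline, 0.165% at Day 5, 0.312% over time in Ajcl, 10.6% over time in ByJcl and 0.0% for the interaction of substrain and treatment. DESeq2 called 0.594%, 3.15%, 1.77%, 15.8% and 0.129% of genes in the same order. The values behind these calls follow, from ligand to receptors and then the synthases, with levels as TMM-normalized CPM and differences as log2 fold changes (log2FC).

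**Figure D2:**
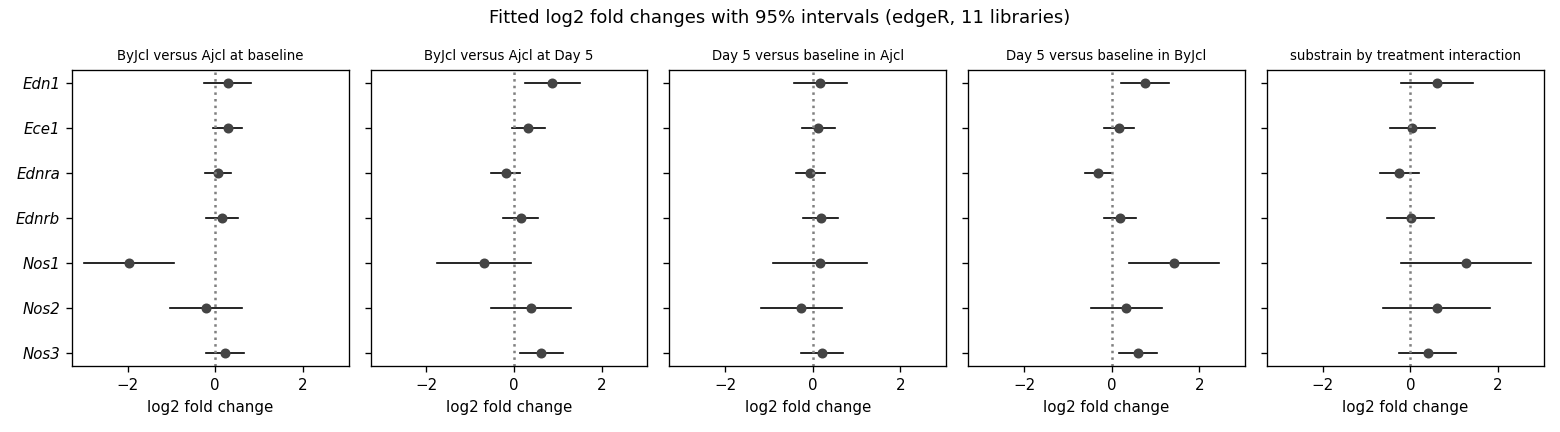
Fitted log2 fold changes of the 7 genes in the 5 comparisons (edgeR, 11 libraries), with unadjusted 95% intervals as bars and 0 as a dotted line. Nos1 at baseline lay farthest from 0 (log2FC -1.96), and no gene passed the adjusted threshold in any panel.

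The ligand Edn1 overlapped between the substrains at baseline and was highest in ByJcl at Day 5. It measured 20.6, 11.7 and 14.2 CPM in the Ajcl baseline libraries and 21.1, 18.3 and 16.2 in the ByJcl ones. At Day 5 it measured 16.0 and 18.4 CPM in Ajcl, with 12.6 in the library left out, and 23.1, 26.9 and 43.5 in ByJcl. All 3 ByJcl Day 5 libraries thus lay above every other library, with or without Ajcl replicate 1, and replicate 3 stood highest. Day 5 means were 31.2 ± 10.9 CPM in ByJcl (SD, n = 3) and 17.2 ± 1.71 in Ajcl (n = 2), a ratio of 1.81, or 1.99 with all 3 Ajcl libraries. The edgeR log2FC was 0.88 ± 0.28 (SE), with an adjusted p of 0.233, and was 0.58 without ByJcl Day 5 replicate 3. Within ByJcl, Day 5 was 1.68 times baseline (log2FC 0.77 ± 0.25, edgeR adjusted p = 0.0716), while in Ajcl the log2FC was 0.18 ± 0.28 (edgeR adjusted p = 0.892) and lay between 0.02 and 0.41 with 1 library left out. The difference between these responses had a log2FC of 0.60 ± 0.37 and an edgeR adjusted p of 0.691, so the test did not separate the responses. The difference over time in ByJcl passed under DESeq2 (log2FC 0.79, adjusted p = 0.018) and, in edgeR, without ByJcl Day 5 replicate 1 (0.94, adjusted p = 0.0446) or without Ajcl baseline replicate 1 (0.78, adjusted p = 0.046). Without ByJcl Day 5 replicate 3 it was 0.49, with an edgeR adjusted p of 0.195, the highest of 19 alternatives.

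The other endothelin ligands did not pass in any comparison. Edn2 had 0 to 78 counts per library, with 4, 0 and 17 in ByJcl at Day 5 against 78, 36 and 26 at baseline (log2FC -2.65 ± 1.08, edgeR adjusted p = 0.146). Edn3 had 138, 234 and 174 counts in ByJcl at Day 5, all below the 260 to 366 of ByJcl at baseline (log2FC -0.61 ± 0.22, edgeR adjusted p = 0.0979). The fitted values of these ligands in ByJcl therefore had the opposite sign to that of Edn1. The second converting enzyme, Ece2, had at most 2 counts in a library and was not tested.

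Ece1 was somewhat higher in ByJcl than in Ajcl at baseline, by a difference that did not pass the test. It measured 400.5, 455.9 and 486.7 CPM in Ajcl and 502.3, 612.3 and 496.2 in ByJcl at baseline, so that the ranges did not overlap, although their nearest values (486.7 and 496.2) were close. The means, 447.7 ± 43.7 and 536.9 ± 65.3 CPM, differed 1.20-fold (log2FC 0.28 ± 0.15, edgeR adjusted p = 0.626), and the log2FC was 0.17 without Ajcl baseline replicate 1. All 8 mesangial and all 7 macrophage markers also had a positive log2FC between substrains at baseline, with medians of 0.22 and 0.69. So did all 8 podocyte markers (median 0.22) and 10 of 12 endothelial markers (0.13). All 8 proximal tubule (median -0.68) and all 7 collecting duct markers (-1.01) were negative. The same held for 5 of 6 loop, macula densa and distal tubule markers (-1.55) and 4 of 5 tested smooth muscle markers (-0.15). None of the markers in these lists was called. Over the 11 libraries Ece1 correlated with the mesangial sum at r = 0.81, the macrophage sum at 0.66 and the endothelial sum at 0.18. Without Ehd3 and Kdr, left out after their values were seen, the endothelial value was 0.63. With the podocyte, proximal tubule, loop to distal tubule and collecting duct sums r was -0.35, -0.45, -0.63 and -0.53. The part of these markers in the difference of Ece1 was not tested. At Day 5 it measured 424.4 and 537.9 CPM in Ajcl, with 351.3 in the library left out, and 695.6, 525.8 and 555.2 in ByJcl, and these ranges overlapped (log2FC 0.33 ± 0.17, edgeR adjusted p = 0.426). It was 0.15 without Ajcl replicate 2, 0.17 without ByJcl replicate 1 and 0.55 without Ajcl replicate 3. For Ece1 the log2FC between Day 5 and baseline was 0.13 ± 0.17 in Ajcl and 0.17 ± 0.15 in ByJcl, and the value in Ajcl turned to -0.027 when all 12 libraries were fitted. The ByJcl value was 0.029 without Day 5 replicate 1 and 0.26 without baseline replicate 2.

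Neither receptor passed the test in any comparison, and Ednra in ByJcl came nearest. Ednra measured 28.0, 31.7 and 24.4 CPM in Ajcl and 30.8, 28.8 and 27.3 in ByJcl at baseline. At Day 5 it measured 28.1 and 25.3 in Ajcl, with 20.8 in the library left out, and 19.9, 22.6 and 26.3 in ByJcl. All 3 ByJcl Day 5 values lay below the 3 ByJcl baseline values, a mean of 22.9 ± 3.24 against 29.0 ± 1.78 CPM, with a log2FC of -0.31 ± 0.13 and an edgeR adjusted p of 0.164. Ednrb measured 180.0, 239.5 and 210.4 CPM in Ajcl and 208.8, 220.6 and 259.5 in ByJcl at baseline. Its Day 5 values were 255.7 and 216.2 in Ajcl, with 221.1 in the library left out, and 219.3, 323.3 and 228.2 in ByJcl. These groups overlapped throughout, and the log2FC of Ednrb lay between 0.01 and 0.19 in the 5 comparisons, with edgeR adjusted p-values from 0.51 to 1.00.

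The ratio of type B to type A receptor per length does not depend on library scaling. At baseline the Ajcl libraries averaged 15.1 ± 2.18 and the ByJcl libraries 16.0 ± 2.80 (n = 3 each; two-sided exact permutation test, p = 0.7). At Day 5 the mean was 18.9 ± 2.19 over all 3 Ajcl libraries and 22.7 ± 5.69 over the ByJcl ones (exact permutation test, p = 0.4). In ByJcl the individual ratios were 13.6, 15.3 and 19.0 at baseline and 22.1, 28.7 and 17.4 at Day 5, and the ranges overlapped (log2 difference 0.49, exact permutation test, p = 0.2). Without ByJcl Day 5 replicate 2 this log2 difference was 0.31, and that between substrains at Day 5, 0.24 over all 12 libraries, was 0.06. In Ajcl the ratios were 12.9, 15.1 and 17.2 at baseline and 21.3, 18.2 and 17.1 at Day 5 (log2 difference 0.33, exact permutation test, p = 0.2). The 21.3 is from replicate 1, the library left out of the fit. Without it this log2 difference was 0.24 and that between substrains at Day 5 was 0.33 (exact permutation test, p = 0.4 for both). The ratio was tested in 4 comparisons. A test of 3 libraries against 3 cannot give a p below 0.1, nor 3 against 2 a p below 0.2.

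The neuronal synthase Nos1 showed the widest separation between substrains among the members, at a low level. At baseline it had 112, 159 and 199 counts in Ajcl and 41, 38 and 48 in ByJcl, or 2.62, 3.37 and 4.24 CPM against 0.873, 0.819 and 0.887. The lowest Ajcl value thus stood well above the highest ByJcl value, and the ByJcl libraries were nearly alike. The means, 3.41 ± 0.811 and 0.860 ± 0.0358 CPM, differed 3.97-fold (log2FC -1.96 ± 0.47, unadjusted p = 0.00144 and adjusted p = 0.294 in edgeR). DESeq2 gave nearly the same value, -1.98 ± 0.47, and called it, with an adjusted p of 0.00605. Over 19 alternatives the log2FC lay between -2.16 and -1.79 and the adjusted p between 0.00605 and 0.834. Nos1 and Ece1 were the 2 members whose baseline ranges did not overlap, against 14.5% of all genes tested, and 1 of 7 members had an unadjusted p below 0.05, against 8.34% of all genes.

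At Day 5 the substrains overlapped in Nos1. It measured 4.74 and 2.79 CPM in Ajcl, with 4.58 in the library left out, and 0.982, 4.21 and 1.64 in ByJcl. ByJcl replicate 2 lay within the Ajcl range and the other two below it, and the log2FC between substrains was -0.69 ± 0.49 (edgeR adjusted p = 0.547). It was -1.49 without that library, -0.35 without ByJcl replicate 1 and -0.29 without Ajcl replicate 2. Within ByJcl all 3 Day 5 values were above the 3 baseline values, with a mean of 2.28 ± 1.71 CPM, 2.65 times baseline (log2FC 1.42 ± 0.46, edgeR adjusted p = 0.0742). Without replicate 2 the log2FC was 0.63 (edgeR adjusted p = 0.327), and without replicate 1 it was 1.79 (edgeR adjusted p = 0.0246). DESeq2 called the difference over all 3 libraries (1.45, adjusted p = 0.0182). In Ajcl the change was 0.15 ± 0.49 (edgeR adjusted p = 0.95), and the difference between the responses was 1.27 ± 0.68 (edgeR adjusted p = 0.651).

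Nos1 tended to be higher in libraries with more transcripts of loop and distal tubule markers. The 6 markers of the loop, macula densa and distal tubule, none of which was called in any comparison, summed to 744.7, 516.0 and 1585 CPM in Ajcl at baseline and to 130.7, 410.0 and 511.6 in ByJcl. At Day 5 the sums were 1096 and 795.2 in Ajcl, with 1965 in the library left out, and 94.5, 499.9 and 375.5 in ByJcl, so every ByJcl library lay below every Ajcl library. Over the 11 libraries Nos1 correlated with this sum at r = 0.74, a description over libraries that share their groups. Ptgs2, which the macula densa also expresses, had a log2FC between substrains of 0.02 at baseline and 1.22 at Day 5 (edgeR adjusted p = 0.996 and 0.212). The other 5 markers were lower in the ByJcl mean at baseline, with log2FC of -1.20 for Umod, -1.34 for Slc12a1, -1.77 for Slc12a3, -2.05 for Pvalb and -3.10 for Calb1. Per 1000 CPM of these markers, Nos1 at baseline was 3.52, 6.53 and 2.68 in the Ajcl libraries and 6.68, 2.00 and 1.73 in the ByJcl ones, so the groups overlapped. At Day 5 it was 4.33 and 3.50 in Ajcl, with 2.33 in the library left out, and 10.4, 8.43 and 4.36 in ByJcl. On this scale every ByJcl library lay above every Ajcl library, the opposite order to that of the mean CPM. The nearest values, 4.33 and 4.36, were almost equal, and the 10.4 rests on a marker sum of only 94.5 CPM. Libraries with nearly equal marker sums differed in Nos1 both between and within the substrains, with 3.37 CPM in Ajcl baseline replicate 2 (sum 516.0), 0.887 in ByJcl baseline replicate 3 (511.6) and 4.21 in ByJcl Day 5 replicate 2 (499.9). How much of the difference in Nos1 goes with these markers was not tested.

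**Figure D3:**
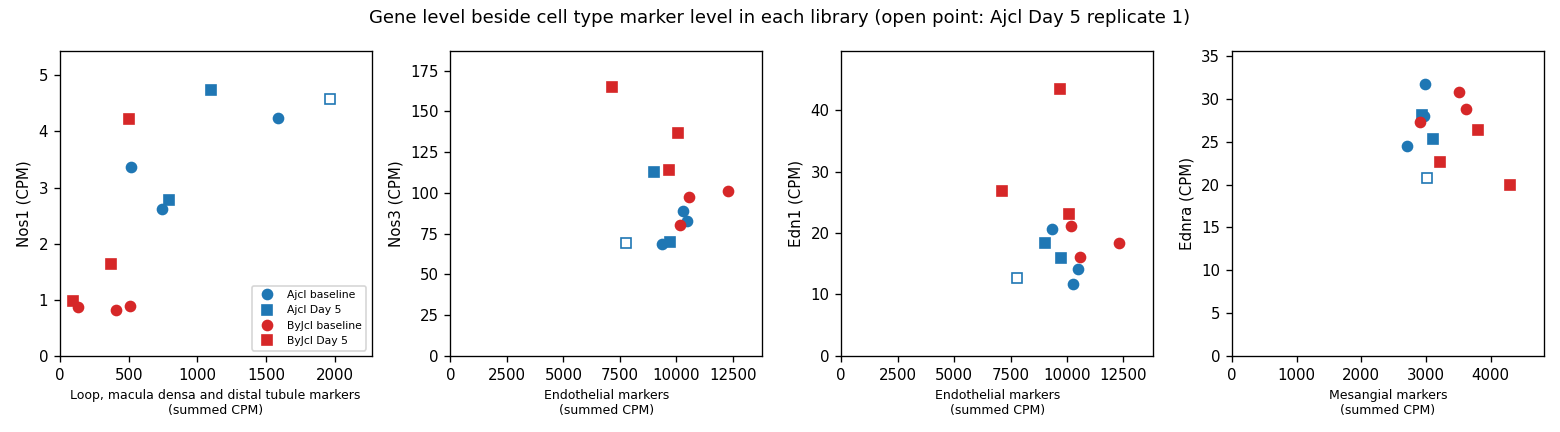
Level of a gene against the summed CPM of a marker list in each library (circles baseline, squares Day 5, blue Ajcl, red ByJcl, open point Ajcl Day 5 replicate 1). The ByJcl libraries, whose loop, macula densa and distal tubule markers summed to 94.5 to 511.6 CPM, had at most 1.64 CPM of Nos1 except Day 5 replicate 2 with 4.21, and Nos3 was highest in ByJcl at Day 5 where the 12 endothelial markers summed to 7139 to 10087 CPM.

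Genes near the members were compared between the substrains, beginning with Nos1. Of 136 tested genes within 5 Mb, 3 were called between substrains at both times. These were the antiviral genes Oas1b, Oas1g and Oas1a, which lie between 2853795 and 2934165 bases past the end of Nos1. Oas1a and Oas1g had 0 counts in all 6 Ajcl libraries and 466 to 1265 and 41 to 388 in the ByJcl ones; the Oas1 genes are close copies of each other, so how reads were divided among them is uncertain. None of the 15 tested genes within 1 Mb of Nos1 was called, and Ksr2, 5903 bases before its start, had a log2FC of -0.84 at baseline (edgeR adjusted p = 0.735). Near Ece1, 2 of 24 tested genes within 1 Mb were called at both times. Pla2g5, a phospholipase 834011 bases past the end of Ece1, was higher in ByJcl (log2FC 1.42 at baseline, edgeR adjusted p = 0.028), and Otud3, a deubiquitinase 928411 bases past it, was lower (-4.42, edgeR adjusted p = 2.26e-05). No tested gene within 5 Mb of Edn1, Ednra, Ednrb, Nos2 or Nos3 was called between the substrains at either time.

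**Figure D4:**
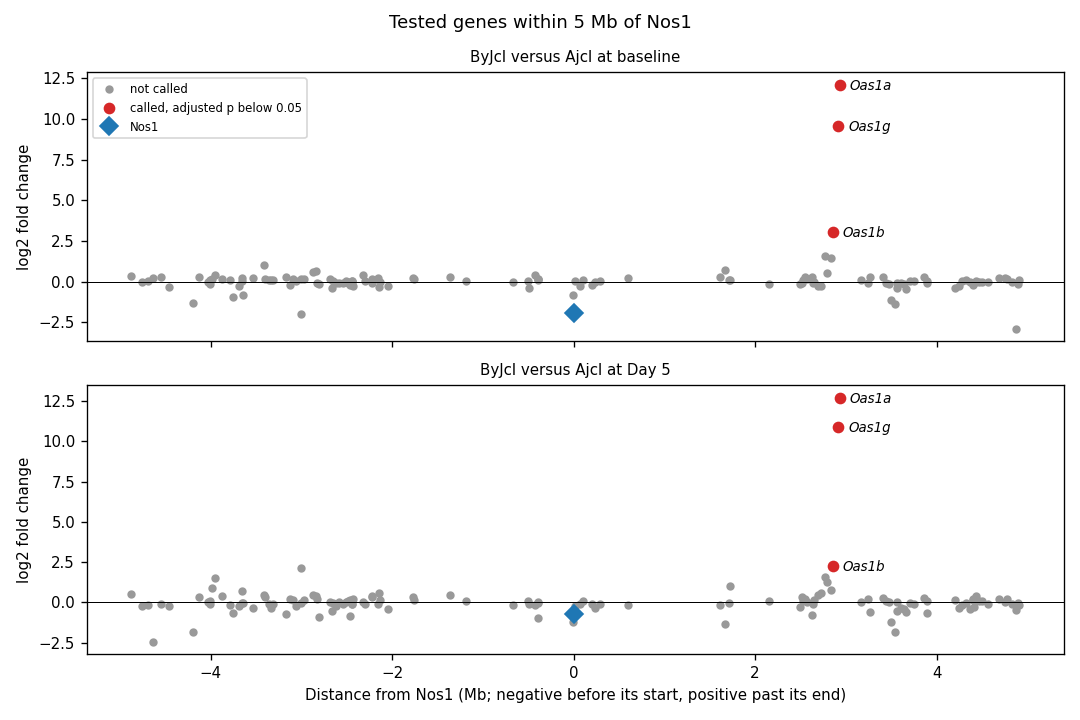
Log2 fold change between substrains (ByJcl over Ajcl) of the 136 tested genes within 5 Mb of Nos1, by distance in Mb, at baseline (top) and at Day 5 (bottom). Oas1a, Oas1b and Oas1g were called at both times (red), and the fitted heights of Oas1a and Oas1g have no fixed size because Ajcl libraries had 0 counts.

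The inducible synthase Nos2 was low in all groups. It measured 10.99, 8.44 and 9.70 CPM in Ajcl and 8.47, 9.31 and 7.02 in ByJcl at baseline. At Day 5 it measured 6.42 and 9.49 in Ajcl, with 6.07 in the library left out, and 16.9, 4.71 and 8.92 in ByJcl. The 3 ByJcl Day 5 libraries held both the highest and the lowest value of the series, and the groups overlapped in all comparisons. Its log2FC in ByJcl was 0.34 ± 0.37 (edgeR adjusted p = 0.614) and turned to -0.26 when replicate 1 was left out.

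The endothelial synthase Nos3, like Edn1, was highest in ByJcl at Day 5. It measured 68.8, 88.7 and 83.1 CPM in Ajcl and 80.5, 101.2 and 97.2 in ByJcl at baseline. At Day 5 it measured 69.6 and 113.1 CPM in Ajcl, with 69.5 in the library left out, and 136.6, 165.2 and 113.7 in ByJcl. Ajcl replicate 3 came close to the lowest ByJcl library, so the Day 5 groups were only just apart. The means were 138.5 ± 25.8 CPM in ByJcl and 91.3 ± 30.7 in Ajcl (n = 2), a ratio of 1.52 (log2FC 0.62 ± 0.22, edgeR adjusted p = 0.274). Without Ajcl replicate 3 the log2FC was 1.06 (edgeR adjusted p = 0.0613) and without Ajcl replicate 2 it was 0.30 (edgeR adjusted p = 0.988). Day 5 in ByJcl was 1.49 times baseline (log2FC 0.60 ± 0.20, edgeR adjusted p = 0.0752), against 0.21 ± 0.22 in Ajcl (edgeR adjusted p = 0.825), and the difference between these was 0.39 ± 0.30 (edgeR adjusted p = 0.738). DESeq2 called the ByJcl change (0.62, adjusted p = 0.0253), as did edgeR when the fit held only the groups compared (0.62, adjusted p = 0.0463). It also passed in edgeR without Ajcl Day 5 replicate 2 or 3 (0.61, adjusted p = 0.0364 in both) and without ByJcl Day 5 replicate 3 (0.76, adjusted p = 0.0424), while it was 0.46 (adjusted p = 0.257) without ByJcl Day 5 replicate 2.

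Levels of the members were also set beside markers of the cells that may express them, in sums that a few genes dominate. The 12-gene endothelial sum ran from 10184 to 12298 CPM in ByJcl at baseline and from 7139 to 10087 at Day 5, but 6 markers had a positive and 6 a negative log2FC, with a median of -0.04. Plvap rose (log2FC 0.95) while Flt1 and Ehd3 fell (-0.54 and -0.81), at edgeR adjusted p-values of 0.047, 0.0471 and 0.0271. The mean sum was lower at Day 5 by a difference of -2050 CPM, which shrank to -162 without Ehd3 and Kdr, a choice made after their values were seen. Per 1000 CPM of the 12 markers, Nos3 was 7.91, 8.23 and 9.20 in ByJcl at baseline and 13.5, 23.1 and 11.8 at Day 5. Without Ehd3 and Kdr it was 13.6, 14.6 and 15.5 at baseline and 20.0, 31.5 and 17.3 at Day 5, so the times were apart on both scales. Edn1 was 2.07, 1.49 and 1.53 at baseline and 2.29, 3.77 and 4.50 at Day 5 per 1000 CPM of all 12. Without Ehd3 and Kdr it was 3.55, 2.64 and 2.57 against 3.37, 5.13 and 6.62, and the times overlapped. Ece1 was apart on the scale of all 12 markers, with 47.0 to 49.8 at baseline and 57.4 to 73.7 at Day 5, but overlapped without Ehd3 and Kdr (79.1 to 88.3 against 84.4 to 101.7), as its CPM did.

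Ednra was treated the same way with mesangial markers. Per 1000 CPM of all 8 it was 8.77, 7.97 and 9.38 in ByJcl at baseline and 4.62, 7.02 and 6.92 at Day 5. One marker, Serpine2, rose from 508.8 to 914.2 CPM (edgeR adjusted p = 0.00285), while the median log2FC of the list was 0.02, with 4 markers positive and 4 negative. Without Serpine2, left out after its values were seen, Ednra was 10.3, 9.28 and 11.3 at baseline and 5.86, 9.60 and 9.29 at Day 5, and the times overlapped. All 8 podocyte markers fell in ByJcl, with a median log2FC of -1.20, and across the 11 libraries Edn1 and Nos3 both correlated with the podocyte sum at r = -0.73. Between substrains at Day 5 all 8 were lower in ByJcl (median -0.66). All 8 mesangial (0.23) and 8 of 12 endothelial markers (0.17) were higher there, and none of these was called. The smooth muscle marker Tagln was called higher (1.15, edgeR adjusted p = 0.0436). The part of these markers in the results was not tested. The smooth muscle sum was 503.3 to 636.9 CPM in ByJcl at Day 5 against 323.8 to 399.7 at baseline, and Tagln alone went from 126.8 to 308.3 CPM (edgeR adjusted p = 0.00163), while Cnn1, Acta2, Myh11 and Lmod1 had log2FC of 0.94, 0.11, 0.11 and -0.28 and did not pass. Nos3 correlated with this sum at r = 0.77 over the 11 libraries and at -0.01 without Tagln.

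The share of members that separated the groups was set beside that of all genes in each comparison. Between substrains at Day 5, 2 of 7 members did not overlap (Edn1 and Nos3), against 32.3% of genes, or 18.8% when all 12 libraries are required to separate, and the same 2 had an unadjusted p below 0.05 in edgeR, against 14% of genes. Between Day 5 and baseline in ByJcl, 4 of 7 members did not overlap (Edn1, Nos1 and Nos3 higher, Ednra lower), against 33.6% of genes in either direction, 15.9% higher and 17.7% lower. The same 4 had an unadjusted p below 0.05, against 26.8% of genes. Between the times in Ajcl, no member was apart or had an unadjusted p below 0.05 in edgeR, against 25.6% and 9.8% of genes. For the interaction, no member had an unadjusted p below 0.05, against 8.02% of genes. Day 5 against baseline and the comparisons between substrains share libraries, so these counts are not independent of each other. The median log2FC of the 7 members was 0.34 in ByJcl and 0.15 in Ajcl, and 0.33 between substrains at Day 5, where the median of all genes tested was within 0.01 of 0.

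Genes that act with the endothelins were described next by lists. Of 14 tested genes of the wider endothelin pathway, with a median log2FC of -0.08, 1 rose and 1 fell in ByJcl at Day 5, where 5.75% of all genes rose and 4.83% fell. Itpr3, a calcium channel opened downstream of the receptors, fell from 303.8 to 135.3 CPM (log2FC -1.14 ± 0.17, edgeR adjusted p = 0.00325). Ecel1, a relative of the converting enzymes, passed upward (edgeR adjusted p = 0.0343), but its mean was 0.0123 CPM at baseline and 0.307 at Day 5. The remaining genes, among them the coupled G proteins Gnaq and Gna11 (log2FC 0.04 and -0.13), did not pass.

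Among 13 partners and regulators of the synthases, with a median log2FC of 0.06, 1 rose and 2 fell in ByJcl. Of all genes, 5.75% rose and 4.83% fell there. Klf4, an endothelial transcription factor that can induce Nos3, rose from 267.8 to 423.6 CPM (log2FC 0.69 ± 0.17, edgeR adjusted p = 0.0284). Nos1ap, an adaptor of the neuronal synthase that podocytes also express, fell (-0.89 ± 0.23, edgeR adjusted p = 0.0342). Hsp90ab1, a chaperone of the endothelial synthase, fell from 3540 to 1431 CPM (-1.28 ± 0.33, edgeR adjusted p = 0.0316). Cav1 and Nostrin, which bind Nos3 protein in the membrane, had log2FC of 0.31 and 0.49 with edgeR adjusted p-values of 0.0807 and 0.0581.

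Supply genes showed 2 further calls in ByJcl, where 5.75% of all genes rose. Whether these lists differ from all genes was not tested. Gch1, the first enzyme of the synthesis of tetrahydrobiopterin, a cofactor of all synthases, rose from 16.7 to 23.4 CPM (log2FC 0.52 ± 0.14, edgeR adjusted p = 0.0414), alone among 6 genes whose median was -0.11. Slc7a1, a carrier of arginine into cells, rose from 22.9 to 40.4 CPM (0.85 ± 0.18, edgeR adjusted p = 0.0152), alone among 10 genes of arginine supply and use with a median of 0.02. Downstream of nitric oxide, 0 of 11 tested genes were called by edgeR. The subunits of its receptor, guanylate cyclase, had log2FC in ByJcl of -0.15 ± 0.18 for Gucy1a1 and 0.02 ± 0.12 for Gucy1b1 (edgeR adjusted p = 0.646 and 0.944). None of the genes in these 5 lists was called between substrains, in Ajcl or for the interaction by edgeR.

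Within the set, no common pattern joined all members. Over the 11 libraries the log2 levels of Ednrb and Nos2 correlated at r = -0.76, those of Nos3 and Ece1 at 0.73 and those of Nos3 and Ednra at -0.69, while Edn1 and Nos3 reached 0.49, which describes libraries that share groups. Among 13640 genes with a mean of at least 1 CPM, the pattern most like that of Edn1 was that of Prr13 (r = 0.89), but it fell to 0.68 over 12 libraries. For Ece1 it was the endothelial matrix gene Mmrn2 (0.96 over 11 and 0.97 over 12 libraries), for Nos3 Ppp1r18 (0.96 and 0.95), and for Ednra Tmem129 (0.97 and 0.81). For Nos1 it was Foxq1 (0.93 and 0.94), followed by Cacna1d and Hoxd10 (0.93 both), for Ednrb Gnl3l (0.94 and 0.76) and for Nos2 Rab1b (0.93 and 0.83). All are among the highest of 13640 correlations over 11 libraries that share groups. Such values can be high without any link between the genes, and no link was tested.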

How the data were processed

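Glomeruli were isolated by perfusion with magnetic beads and their poly(A) RNA was sequenced as strand-specific 150-base read pairs. The authors used Trimmomatic for trimming, STAR for alignment (GRCm39) and featureCounts for counting, and deposited whole-number counts per gene symbol, not normalized. The annotation, the strand setting and whether reads or pairs were counted are not given in the sources used here. From 77.1% to 82.9% of counts between 1 and 49 in a library were even. Labels gave groups and replicates, and p-values measure the spread between these libraries.

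Counts were fitted with edgeR 4.0.16 in R 4.3.3 (filterByExpr, TMM, 1 coefficient per group, 11 libraries, Benjamini-Hochberg over 17002 genes). DESeq2 1.42.0, other filters and scalings, all 12 libraries, a replicate block and leaving out each library were the alternatives. Scripts were tested on simulated data. Levels are TMM CPM, divided by GENCODE vM39 exon length where stated, and ranges not overlapping means that every library of a group lay above every library of the other. Ratios were compared by exact permutation tests. Figures used Python 3.11.15 and matplotlib 3.10.9. The members, the pathway and marker lists and the tests were chosen with earlier results of these data known. Named genes are the 7 members, called list genes (at most 4 per list and comparison), Edn2, Edn3, Ece2, Gucy1a1 and Gucy1b1, and the 3 genes most alike in Pearson correlation of log2(CPM + 0.5). Genes outside the rule (Atg9b, Ksr2, the called neighbours, marker genes, Gnaq, Gna11, Cav1, Nostrin and Gucy1a2) were chosen after their values were seen. The same-numbered libraries' deviations from group means correlated between -0.357 and 0.507, and those of libraries with different numbers between -0.649 and 0.541. With 2 or 3 libraries per group this check cannot tell whether the numbers pair libraries, and the main fit used no pairing.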

Additional observations from a re-analysis of the deposited data

How the results depend on the processing

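With every library of the groups kept, edgeR called no member under any setting, except 1 over time in ByJcl with only the groups compared, and DESeq2 called 1 between substrains at baseline and 3 over time in ByJcl. Leaving out 1 library gave 0 to 2 members in ByJcl and 0 elsewhere. Called genes between substrains at baseline were 101 with DESeq2 and 15 with only the groups compared, and 12 to 29 with 1 library left out. At Day 5 they were 72 with all 12 libraries, 535 with DESeq2, 56 without a filter, 58 with the block and 12 libraries, 6 with only the groups compared, and 9 to 218 with 1 left out. In Ajcl over time they were 301 with DESeq2, 99 without a filter, 26 with the replicate block on 11 or 12 libraries, 33 with only the groups compared, and 11 to 180 with 1 left out. In ByJcl they were 1197 with 12 libraries, 1109 with the block besides, and 680 to 2056 with 1 left out. For the interaction they were 22 with DESeq2 and 0 to 5 with 1 left out. The replicate block over 11 libraries called 0 members. In Ajcl, Ece1 turned to -0.027 with 12 libraries and -0.032 with the block besides, and Nos1 to -0.10 with the block. With 1 library left out, values crossed 0 for Ednra (-0.0347 to 0.18) and the receptor ratio (-0.0538 to 0.191) at baseline, Ednrb (-0.0427 to 0.253) and Nos2 (-0.23 to 0.74) at Day 5, Ece1 (-0.10 to 0.30), Ednra (-0.147 to 0.0586), Nos1 (-0.26 to 0.45) and Nos3 (-0.23 to 0.53) in Ajcl, Ednrb (-0.00703 to 0.29) and Nos2 (-0.26 to 0.68) in ByJcl, and Ece1 (-0.12 to 0.28) and Ednrb (-0.19 to 0.13) for the interaction. Interaction values for Edn1 (0.33 to 0.78), Nos1 (0.48 to 1.69) and Nos3 (0.0845 to 0.84) kept their sign but moved over 1.5 times. The cause was not tested. Leaving out Ajcl Day 5 libraries left 1 there, assumed to vary like the other groups. A fit of only the groups compared was not made for the interaction.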
